A study of Mus musculus with 12 samples.

Results

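The libraries made 3 h after irradiation were set against those made 1 h after it in mouse embryos labelled p53 knockout, to find the genes that rose or fell late. Genes were taken from the whole table by 1 rule, 1 TPM or more in any 2 or more of the study's 12 libraries, which 15535 of 53647 genes met. The comparison itself rests on 4 of the 12 libraries, 2 at each time. TPM is a transcript abundance per length, scaled to a fixed sum in each library. It keeps no read depth, so the depth of each library is unknown and counting error cannot be stated.

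The embryos were at embryonic day 9.5. Pregnant mice received 30 Gy of X-rays at 5 Gy per minute, and the labels give the embryos as p53 -/- or p53 +/+, each untreated, at 1 h and at 3 h, with 2 libraries in each of the 6 groups. The kind of p53 allele, the mouse strain, and whether embryos were pooled are not stated there. Separate embryos or litters for the 2 libraries of a group are not recorded. The p-values below thus measure the spread between libraries, which may be technical in some groups. Xist, given below, was present in 1 of the 2 libraries at 1 h under the knockout label and absent from the other. Those 2 libraries therefore hold different embryos, and for the 2 at 3 h this is not known. These are whole-embryo samples, in which fewer cells of a type and less RNA per cell cannot be told apart.

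Trp53 (ENSMUSG00000059552), which encodes p53, was read first because it checks the genotype labels. The libraries labelled knockout held 265 and 79.1 TPM untreated, 250.1 and 209.5 TPM at 1 h and 242 and 219.8 TPM at 3 h. The libraries labelled wild type held 114 and 211 TPM untreated, 114 and 66.8 TPM at 1 h and 93.7 and 68.0 TPM at 3 h. Untreated, the 2 labels overlapped. After irradiation every library labelled knockout was above every library labelled wild type, which goes against the labels. Known targets of p53 go against them too. In the 3 lists of p53 targets below, 19 of 30, 10 of 22 and 18 of 36 members rose late under the knockout label, against 6.89% of all genes tested. Under the wild type label 0 of all genes tested were called. Whether the labels are right was not tested, and all directions below refer to libraries as labelled. Trp53 itself did not pass the test between 3 h and 1 h (log2 fold change 0.01, SE 0.535, adjusted p = 0.994). Whether the transcript gives a protein cannot be read from TPM.

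Libraries differed in other ways than time. Ribosomal protein genes took 11.86% and 12.52% of the TPM in the 3 h libraries, and 12.83% and 18.57% in the 1 h libraries, where the higher share is that of the library numbered 2. The 1 h library numbered 2 of the wild type label stood apart in the same way, with 18.41%. Transcripts of the mitochondrial genome took 8.55% and 8.09% at 3 h, and 6.31% and 4.93% at 1 h. Xist, made by the inactive X chromosome, was at 108 and 96.9 TPM in the 3 h libraries and at 46.7 and 0 TPM in the 1 h libraries. On the first principal component, with 34.7% of the variance, the 1 h libraries numbered 2 lay at 66.4 under the knockout label and 67.9 under the wild type label, and the other 10 libraries between -46.1 and 11.8. The part of these differences in the results was not tested. Counts without a library are given where leaving it out moves them by over 1.5 times.

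p53 is a transcription factor that is held at a low level by the ubiquitin ligase MDM2 and accumulates when kinases of the DNA damage response, ATM and CHK2 among them, act on both proteins. It induces genes that halt the cell cycle, repair DNA or kill the cell, and, through p21 and the DREAM repressor complex, it lowers genes of mitosis whose promoters carry the cell cycle genes homology region. In the mouse embryo at midgestation the neural tube is known as a tissue in which radiation sets off p53-dependent cell death.

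The series title names p21, ccng1, foxo3b and fbxw7, whose mouse genes here are Cdkn1a, Ccng1, Foxo3 and Fbxw7. The promoters of Cdkn1a and Ccng1 are shown because both hold matches to the p53 decamer, the 10-base unit of the p53 binding consensus, searched on both strands. The windows run from 250 bases before to 50 bases after the RefSeq gene start, GRCm38.p6, 5′ to 3′ on the strand of the gene. Matches are in capitals. The Cdkn1a window lies at chr17:29090729-29091028, plus strand and the Ccng1 window at chr11:40755237-40755536, minus strand.
Cdkn1a: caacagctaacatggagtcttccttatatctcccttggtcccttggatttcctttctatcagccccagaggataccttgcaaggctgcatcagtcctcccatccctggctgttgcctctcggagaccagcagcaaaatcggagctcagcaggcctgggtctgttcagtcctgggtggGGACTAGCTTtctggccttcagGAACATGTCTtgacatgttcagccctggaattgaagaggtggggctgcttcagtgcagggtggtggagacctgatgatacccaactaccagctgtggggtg
Ccng1: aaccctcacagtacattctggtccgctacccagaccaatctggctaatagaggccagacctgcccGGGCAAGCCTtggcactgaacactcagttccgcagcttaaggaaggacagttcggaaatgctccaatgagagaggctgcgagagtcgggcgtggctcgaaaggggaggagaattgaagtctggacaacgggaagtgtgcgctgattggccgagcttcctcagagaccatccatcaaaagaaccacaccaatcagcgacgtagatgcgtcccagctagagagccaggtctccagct
The Cdkn1a window held 2 decamers with 12 bases between them, and the Ccng1 window held 1. Of all 27025 promoters in the RefSeq table, 8.37% held a decamer and 16 (0.0592%) held 2 decamers 0 to 13 bases apart. The windows of Foxo3 and Fbxw7 held none, which says only that these letters are not in those windows.

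All 4 title genes rose between 1 h and 3 h in the libraries labelled knockout, and they differed in where they stood at 1 h. Cdkn1a (ENSMUSG00000023067), the cyclin-dependent kinase inhibitor p21, was at 6.88 and 5.38 TPM untreated, 79.4 and 76.2 TPM at 1 h and 499 and 444 TPM at 3 h. Each step left the groups without overlap, and the step between 1 h and 3 h passed the test (log2 fold change 2.58, SE 0.187, adjusted p = 9.12e-05). Ccng1 (ENSMUSG00000020326), cyclin G1, was at 18.8 and 12.4 TPM untreated, 73.5 and 120.2 TPM at 1 h and 563 and 703 TPM at 3 h (log2 fold change 2.73, SE 0.448, adjusted p = 0.00602). Its call was lost without the 3 h library numbered 2, and the difference of its change between the labels did not pass (adjusted p = 0.0777, and 0.0244 with the block).

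Foxo3 (ENSMUSG00000048756), a FOXO-family regulator of stress genes, was at 11.0 and 11.9 TPM untreated, 6.55 and 10.5 TPM at 1 h and 41.5 and 53.6 TPM at 3 h (log2 fold change 2.37, SE 0.232, adjusted p = 0.00051). Fbxw7 (ENSMUSG00000028086), the substrate receptor of a ubiquitin ligase that marks cyclin E for degradation, was at 13.95 and 12.9 TPM untreated, 14.2 and 13.1 TPM at 1 h and 46.9 and 47.4 TPM at 3 h (log2 fold change 1.72, SE 0.184, adjusted p = 0.000804). At 1 h neither Foxo3 nor Fbxw7 stood above the untreated range in both libraries, whereas Cdkn1a and Ccng1 already did. The libraries labelled wild type showed no rise of that size: Cdkn1a was at 6.96 and 6.18 TPM at 3 h and 6.01 and 8.36 TPM at 1 h, and Fbxw7 at 15.4 and 15.3 TPM at 3 h and 14.3 and 9.65 TPM at 1 h. Foxo3 was at 12.0 and 14.8 TPM at 3 h and 8.91 and 10.2 TPM at 1 h there. Foxo3 and Fbxw7 were thus higher at 3 h without overlap, but neither passed the limma test (log2 fold change 0.45 and 0.35, adjusted p = 0.901 for both). The difference between the labels passed for Cdkn1a (adjusted p = 0.00155), Foxo3 (0.0209) and Fbxw7 (0.0338).

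**Figure D1:**
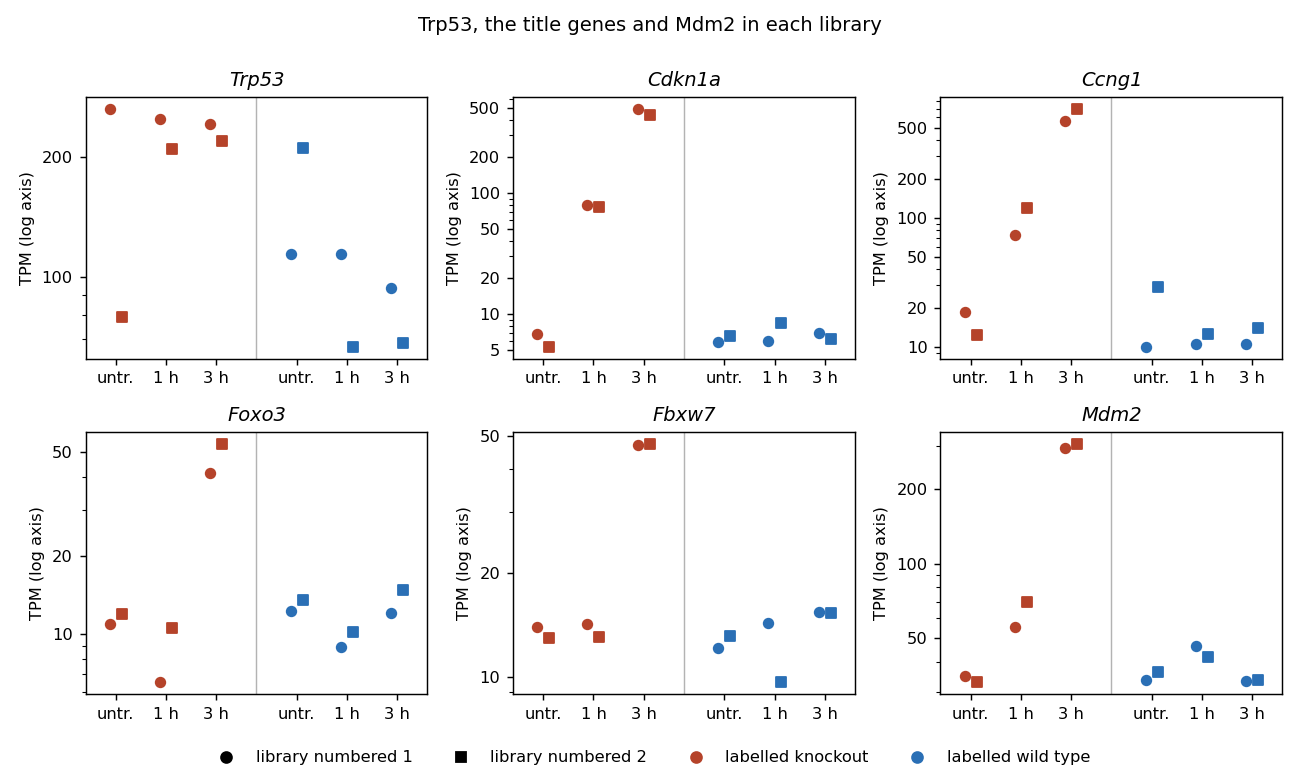
TPM (log axis) of Trp53, the 4 title genes and Mdm2 in each of the 12 libraries, by time and label, with circles for libraries numbered 1 and squares for those numbered 2. Cdkn1a, Ccng1 and Mdm2 climb at 1 h and again at 3 h in the libraries labelled knockout, Foxo3 and Fbxw7 stand high at 3 h, and the libraries labelled wild type stay low in these 5 genes.

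Over all genes, 1740 were called between 3 h and 1 h (11.2% of those tested, limma, Benjamini-Hochberg adjusted p under 0.05), and 3868 (24.9%) had an unadjusted p under 0.05. The 2 groups did not overlap for 47.2% of the genes tested, so a lack of overlap alone is common here. The late changes leaned upwards: 1071 genes rose (6.89%) and 669 fell (4.31%). The rises were also larger, with 777 of at least 2-fold, 183 of at least 4-fold and 52 of at least 8-fold, against 310, 23 and 2 among the falls. The median log2 fold change was 1.28 over the genes that rose, -0.97 over those that fell and -0.06 over all genes tested. Of the genes that rose, 239 were under 1 TPM in both 1 h libraries, and of those that fell, 56 were under 1 TPM in both 3 h libraries. At the edge of the threshold, Ctla2a (adjusted p = 0.0499) was just inside and Camkv (0.05002) just outside.

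The counts depend on how the spread is estimated. With the replicate number as a block, 2076 genes (13.4%) rose and 2449 (15.8%) fell, and these included all 1740. The balance of rises and falls in that fit depends on the scaling: with the block and size factors 2446 rose and 2049 fell. A fit of the 4 libraries alone, with its few degrees of freedom, called 134 higher and 9 lower. Of 121 called genes that the naming rule picked, 34 were called in it. Without a single library the counts were 633 and 398 (1 h, numbered 1), 809 and 243 (1 h, numbered 2), 598 and 174 (3 h, numbered 1), and 525 and 198 (3 h, numbered 2). Calls that held without each of the 12 libraries in turn numbered 456 higher and 120 lower. These make up a larger share of the rises than of the falls.

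The p53 targets of arrest and feedback were the list with the most members higher: 19 of 30 tested rose, 0 fell, and the median log2 fold change was 1.23. Mdm2, the ubiquitin ligase that p53 induces against itself, was at 294 and 306 TPM at 3 h and 55.2 and 70.1 TPM at 1 h (log2 fold change 2.25, SE 0.151, adjusted p = 7.59e-05). Ptprv, a receptor-type phosphatase known as a p53 target in the mouse, had the largest rise of any gene named here, at 49.7 and 35.8 TPM at 3 h against 1.18 and 0.21 TPM at 1 h (log2 fold change 4.73, SE 0.352, adjusted p = 0.00011). Cdkn2b, which encodes the kinase inhibitor p15, was at 4.86 and 4.02 TPM at 3 h and 0.25 and 0.38 TPM at 1 h (log2 fold change 2.05, SE 0.19, adjusted p = 0.000393). In all 3 genes the groups lay far apart. The other members that rose were Trp53inp1, Ccng1, Zmat3, Foxo3, Inka2, Gtse1, Fbxw7, Sesn2, Ei24, Ckap2, Plk2, Rprm, Gadd45a, Phlda1 and Ppm1d besides Cdkn1a, with log2 fold changes between 0.83 and 3.02. Without the 3 h library numbered 2, 14 members rose, the fewest of any single omission, and the fit of the 4 libraries alone called 4.

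Not every target of this list moved late. Btg2, an antiproliferative gene, was at 5.11 and 10.4 TPM untreated, 35.3 and 73.1 TPM at 1 h and 78.1 and 122 TPM at 3 h, and its late change did not pass (log2 fold change 0.92, SE 0.476, adjusted p = 0.276). Sesn1, a sestrin, was at 7.77 and 11.7 TPM at 3 h and 6.91 and 13.1 TPM at 1 h, with a log2 fold change of 0.00. Both genes were picked after their values were seen, as was the pair of death genes given next to Pmaip1 below.

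Among p53 targets of cell death, 10 of 22 tested rose, 0 fell, and the median was 0.58. Fas, a death receptor, was at 42.7 and 46.5 TPM at 3 h against 0.81 and 1.47 TPM at 1 h (log2 fold change 4.43, SE 0.319, adjusted p = 9.1e-05). Tnfrsf10b, the mouse TRAIL death receptor, was at 74.7 and 83.7 TPM at 3 h and 11.7 and 14.3 TPM at 1 h (log2 fold change 2.52, SE 0.195, adjusted p = 0.000145), and Pidd1, a scaffold that activates caspase-2, at 69.5 and 84.3 TPM at 3 h and 17.5 and 15.96 TPM at 1 h (log2 fold change 2.13, SE 0.191, adjusted p = 0.000331). The receptors thus went up at 3 h. Their groups did not overlap, which held for 47.2% of all genes tested and was a condition for picking Fas. Pmaip1, the BH3-only protein NOXA, was at 1.88 and 1.23 TPM untreated, 12.0 and 15.1 TPM at 1 h and 238 and 217 TPM at 3 h (log2 fold change 3.98, SE 0.271, adjusted p = 8.1e-05).

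Bbc3, the BH3-only protein PUMA, was at 12.0 and 11.7 TPM untreated, 45.02 and 43.2 TPM at 1 h and 68.7 and 66.2 TPM at 3 h, and its late change did not pass (log2 fold change 0.60, SE 0.258, adjusted p = 0.19). Bax, the pore-forming effector, was at 229 and 242 TPM at 3 h and 141 and 182 TPM at 1 h (log2 fold change 0.56, SE 0.226, adjusted p = 0.168). Bbc3 thus had most of its distance from the untreated level behind it at 1 h, on the TPM scale, and Pmaip1 did not. The remaining members that rose were Eda2r, Apaf1, Perp, Dapk1, Aen and Zfp385a, with log2 fold changes between 1.19 and 3.11. Casp8, Bid, Bak1, Bik, Bcl2l11 and Siva1 did not pass the test, with values between -0.10 and 0.41.

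Among p53 targets of repair and metabolism, 18 of 36 tested rose, 0 fell, and the median was 0.94. Tap1, a subunit of the peptide transporter for antigen presentation, was at 44.4 and 50.9 TPM at 3 h against 1.00 and 1.03 TPM at 1 h (log2 fold change 4.59, SE 0.189, adjusted p = 2.65e-05). Polk, a translesion DNA polymerase, was at 5.58 and 5.51 TPM untreated, 3.17 and 4.33 TPM at 1 h and 38.3 and 40.3 TPM at 3 h (log2 fold change 3.10, SE 0.224, adjusted p = 9.1e-05). Ercc5, the endonuclease XPG of nucleotide excision repair, was at 18.2 and 15.3 TPM untreated, 13.7 and 16.4 TPM at 1 h and 81.7 and 84.3 TPM at 3 h (log2 fold change 2.39, SE 0.168, adjusted p = 8.68e-05). Neither repair gene was above its untreated values at 1 h in both libraries, and both were high in both 3 h libraries. Dcxr, a dicarbonyl and L-xylulose reductase, was at 109.9 and 139 TPM at 3 h and 6.69 and 8.99 TPM at 1 h (log2 fold change 3.83, SE 0.378, adjusted p = 0.000538), and Cgref1, a secreted growth regulator, at 42.7 and 46.0 TPM at 3 h and 3.08 and 3.22 TPM at 1 h (log2 fold change 3.45, SE 0.204, adjusted p = 5.9e-05). Other repair members did not pass, with log2 fold changes of 0.06 for Ddb2, -0.08 for Xpc and -0.39 for Polh. The fit of the 4 libraries alone called 10 of the 18.

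**Figure D2:**
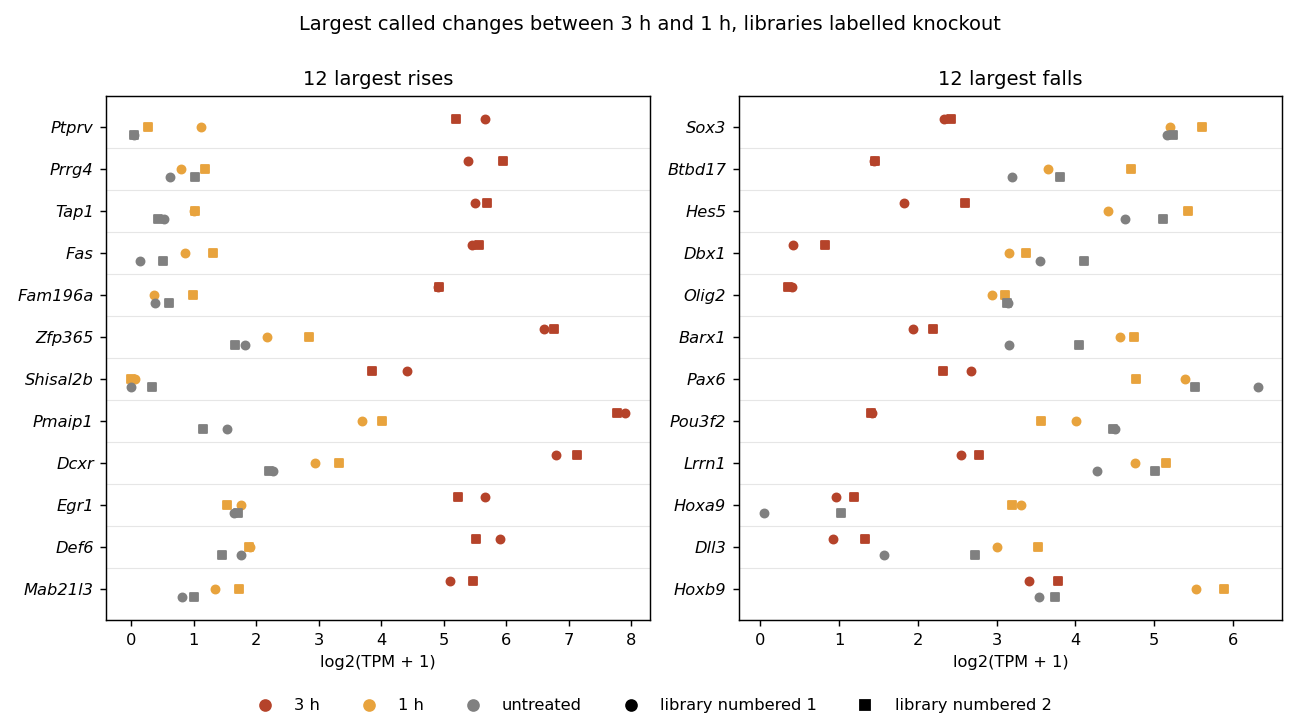
log2(TPM + 1) in the 6 libraries labelled knockout for the 12 largest called rises (left) and the 12 largest called falls (right), clone-like names left out, with 3 h above 1 h and untreated below them in each row. The rows were picked for size and lack of overlap, so the 3 h libraries lie far from the 1 h libraries in every row. Untreated libraries lie near the 1 h ones for most rises, while for Hoxa9 and Hoxb9 they lie near the 3 h ones.

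Outside the p53 lists, the 12 largest rises held Prrg4, Fam196a, Zfp365, Shisal2b, Def6, Egr1 and Mab21l3. Prrg4, a transmembrane Gla protein, was at 40.9 and 60.5 TPM at 3 h against 0.74 and 1.26 TPM at 1 h (log2 fold change 4.68, SE 0.273, adjusted p = 5.75e-05). Zfp365, a zinc finger protein, was at 95.8 and 108 TPM at 3 h and 3.53 and 6.16 TPM at 1 h (log2 fold change 4.17, SE 0.27, adjusted p = 7.45e-05). Def6, a guanine nucleotide exchange factor of small GTPases, was at 58.5 and 44.5 TPM at 3 h and 2.73 and 2.68 TPM at 1 h (log2 fold change 3.81, SE 0.241, adjusted p = 7.41e-05). Fam196a, Shisal2b and Mab21l3 had log2 fold changes of 4.24, 4.11 and 3.75. Shisal2b was listed at 0 and 0.04 TPM at 1 h. None of the 12 largest rises lost its call in any omission of 1 library or in the fit of the 4 libraries alone.

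Immediate early genes, which code for transcription factors and signal regulators switched on within minutes of growth factor or stress signals, rose late as a list: 17 of 29 tested rose, 0 fell, and the median was 1.01. Egr1, a zinc finger factor, was at 2.14 and 2.28 TPM untreated, 2.37 and 1.89 TPM at 1 h and 49.7 and 36.6 TPM at 3 h (log2 fold change 3.81, SE 0.258, adjusted p = 7.82e-05). Fosl1, a FOS-family subunit of AP-1, was at 10.4 and 9.54 TPM at 3 h and 0.39 and 0 TPM at 1 h (log2 fold change 3.22, SE 0.21, adjusted p = 7.45e-05). Atf3, a stress-induced bZIP factor, was at 31.4 and 30.5 TPM at 3 h and 5.56 and 6.58 TPM at 1 h (log2 fold change 2.18, SE 0.195, adjusted p = 0.000327), and Ccn1, a matricellular protein, at 69.3 and 71.6 TPM at 3 h and 15.5 and 14.4 TPM at 1 h (log2 fold change 2.17, SE 0.142, adjusted p = 7.45e-05). At 1 h the list was not above untreated libraries, with mean log2(TPM + 1) levels of 3.04 and 2.99 untreated, 2.88 and 2.89 at 1 h and 3.95 and 3.90 at 3 h. The count was 10 or 11 without any 1 of the 4 libraries compared, and 5 in the fit of the 4 libraries alone. The difference between the labels was called for 7 members, all more positive under the knockout label, a side on which 2.03% of all genes tested passed.

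Other stress lists moved in single members, where 6.89% of all genes tested rose and 4.31% fell. Hmox1, heme oxygenase, was the 1 NRF2 target of 10 that rose, or 1 of 3 with the block (68.1 and 79.96 TPM at 3 h, 20.9 and 25.5 TPM at 1 h, log2 fold change 1.63, SE 0.181, adjusted p = 0.000958). Of 12 NF-kappaB targets 3 rose: Icam1, an adhesion molecule, was at 12.5 and 16.1 TPM at 3 h and 2.52 and 4.51 TPM at 1 h (log2 fold change 1.79, SE 0.271, adjusted p = 0.00409), Csf1, a macrophage growth factor, had a log2 fold change of 1.59, and Cxcl1, a chemokine, of 0.93. Of 11 heat shock genes, Hspa1a (7.53 and 6.24 TPM at 3 h, 1.48 and 0.95 TPM at 1 h, log2 fold change 1.84, SE 0.203, adjusted p = 0.000936) and its near-identical neighbour Hspa1b (0.71, adjusted p = 0.048) rose. Reads of that pair can be split between the copies, and the call of Hspa1b was lost without any 1 of the 12 libraries. None of 17 genes of the integrated stress and unfolded protein responses was called, and Hspa5, the chaperone BiP, was at 444 and 468 TPM at 3 h and 594 and 755 TPM at 1 h (adjusted p = 0.115). With the block, 7 members of that list fell.

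Of 21 genes of double-strand break signalling and repair, 3 rose (14.3%). Over all genes tested 6.89% rose and 4.31% fell. Chek2, the checkpoint kinase CHK2, was at 43.1 and 42.9 TPM at 3 h and 19.3 and 22.5 TPM at 1 h (log2 fold change 1.01, SE 0.148, adjusted p = 0.00351). Rad50, of the MRN complex, and Brca1 had log2 fold changes of 0.83 and 0.73, and both calls were lost without the 1 h library numbered 1 and without either 3 h library. With the block 5 rose and 2 fell. Movement was mixed in the MAP kinase feedback list, where Dusp6 (1.80), Dusp2 (1.49) and Spry4 (0.74) rose and Spred3 (-0.87) fell among 19 tested. All 4 lost their calls without the 3 h library numbered 2, and 1 rise held without the other 3 h library. Without the 1 h library numbered 1 no rise held, and without that numbered 2 the fall did not. With the block 4 rose and 3 fell. Of 10 interferon and antigen presentation genes 2 rose, among them Psmb9 (1.37), an immunoproteasome subunit, and both lost their calls without the 1 h library numbered 1 and without the 3 h library numbered 1.

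Of the 12 largest falls, 5 were neural progenitor markers. Among neural progenitor markers, 11 of 16 tested fell, 0 rose, and the median was -1.60. Sox3, a SoxB1 factor of neural progenitors, was at 4.03 and 4.34 TPM at 3 h against 35.7 and 47.9 TPM at 1 h (log2 fold change -3.03, SE 0.344, adjusted p = 0.00107). Olig2, the factor of motor neuron progenitors, was at 0.32 and 0.28 TPM at 3 h and 6.71 and 7.58 TPM at 1 h (log2 fold change -2.65, SE 0.178, adjusted p = 7.59e-05). Dbx1, a homeobox gene of the intermediate neural tube, was at 0.33 and 0.76 TPM at 3 h and 7.96 and 9.37 TPM at 1 h (log2 fold change -2.66, SE 0.253, adjusted p = 0.000445), and Pax6, a paired box factor of neural and eye progenitors, at 5.37 and 4.01 TPM at 3 h and 40.9 and 26.3 TPM at 1 h (log2 fold change -2.58, SE 0.403, adjusted p = 0.00468). The 3 h libraries were low in all 4 genes. All 4 are among the largest falls, for which a lack of overlap between the groups was a condition.

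Pou3f2 (log2 fold change -2.37, SE 0.275, adjusted p = 0.00114) and Nkx6-1 (log2 fold change -1.71, SE 0.197, adjusted p = 0.00113), a POU and a homeobox factor of the neural tube, fell as well, as did Pou3f3, Sox2, Dbx2, Pax3 and Sox1 with log2 fold changes between -2.06 and -0.95. The summed TPM of the 16 markers was 452 and 464 untreated, 361 and 385 at 1 h and 164 and 160.3 at 3 h. Not every marker moved: Nes, which encodes the filament protein nestin, was at 86.1 and 75.2 TPM at 3 h and 92.5 and 76.3 TPM at 1 h (log2 fold change -0.06, SE 0.185, adjusted p = 0.875). No marker of this list was at 0 TPM in the 3 h libraries. Without 1 of the 3 h libraries 7 members fell, and without 1 of the 1 h libraries 9 fell. Rcor2, a corepressor partner of the demethylase LSD1, was at 31.6 and 33.6 TPM at 3 h and 134 and 129.9 TPM at 1 h (log2 fold change -1.98, SE 0.157, adjusted p = 0.000163), and Btbd17 (-2.73) and Lrrn1 (-2.29), a leucine-rich repeat protein, were also among the largest falls or the largest differences between labels.

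Of 21 neuron markers, 14 fell, 0 rose, and the median was -1.32. Neurog2, a proneural factor, was at 1.17 and 1.57 TPM at 3 h and 7.54 and 7.11 TPM at 1 h (log2 fold change -1.82, SE 0.164, adjusted p = 0.000347). Tubb3, neuronal beta-tubulin, was at 32.3 and 59.4 TPM untreated, 91.8 and 91.9 TPM at 1 h and 31.4 and 27.0 TPM at 3 h (log2 fold change -1.62, SE 0.272, adjusted p = 0.00656), so the 3 h libraries were at or under the lower untreated one. Elavl4, an RNA-binding protein of neurons, had a log2 fold change of -1.47 and Neurog1, another proneural factor, of -1.42. The list was already higher at 1 h than untreated (median log2 fold change 0.68, which shares the 1 h libraries), and mean levels were 2.15 and 2.83 untreated, 2.93 and 3.11 at 1 h and 1.91 and 1.83 at 3 h on the log2(TPM + 1) scale. Single libraries moved the count, which was 2 without the 3 h library numbered 2, 6 without the other 3 h library, 6 without the 1 h library numbered 2 and 10 without the 1 h library numbered 1.

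Notch signalling, which holds neural progenitors back from differentiation and drives the somite clock, split. Hes5, a Notch-induced repressor of neural progenitors, was at 2.53 and 5.05 TPM at 3 h and 20.3 and 42.1 TPM at 1 h (log2 fold change -2.71, SE 0.431, adjusted p = 0.00508), and Lfng, a glycosyltransferase that modifies Notch, at 5.58 and 11.7 TPM at 3 h and 27.8 and 33.9 TPM at 1 h (log2 fold change -1.80, SE 0.285, adjusted p = 0.00505). Dll3, a ligand that blocks Notch within the cell, had a log2 fold change of -2.14, with its call lost without the 1 h library numbered 2 (adjusted p = 0.0603). The receptor Notch1 was at 32.3 and 53.7 TPM at 3 h and 12.5 and 16.8 TPM at 1 h (log2 fold change 1.46, SE 0.312, adjusted p = 0.0196), and Hey2 (0.74) and the ligand Jag1 (0.73) rose too. In all, 3 of 12 rose and 3 fell, where 6.89% of all genes tested rose and 4.31% fell. The rises were less stable than the falls: 0 of the 3 remained without the 1 h library numbered 1 or without the 3 h library numbered 2. Without the 1 h library numbered 2 or the 3 h library numbered 1 the count of rises was 1.

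Of 17 forebrain and midbrain factors, 8 fell, 0 rose, and the median was -0.85. Lhx2, a LIM homeobox factor of the forebrain and eye, was at 6.98 and 6.80 TPM at 3 h and 26.5 and 23.6 TPM at 1 h (log2 fold change -1.72, SE 0.164, adjusted p = 0.000441). Six3, a homeobox factor of the anterior forebrain, was at 1.56 and 1.03 TPM at 3 h and 5.84 and 5.50 TPM at 1 h (log2 fold change -1.55, SE 0.171, adjusted p = 0.000942), and Dmbx1 (-1.38), Rax, Lhx5, Barhl1 and Six6 were among the others that fell. Without the 3 h library numbered 2 the count was 3. Six3 stood at 10.3 and 10.8 TPM untreated, above both 1 h libraries.

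Hox genes, which mark position along the body axis, all had negative log2 fold changes. Of the 17 genes of paralog groups near the anterior end of the clusters, 11 fell with a median of -0.96. Hoxb6 was at 3.36 and 2.71 TPM at 3 h and 12.7 and 13.2 TPM at 1 h (log2 fold change -1.79, SE 0.201, adjusted p = 0.001), Hoxb5 at 2.96 and 2.60 TPM at 3 h and 11.2 and 9.57 TPM at 1 h (log2 fold change -1.59, SE 0.22, adjusted p = 0.00273), and Hoxa2, the gene of the hindbrain and the second branchial arch, at 4.03 and 5.65 TPM at 3 h and 12.5 and 14.9 TPM at 1 h (log2 fold change -1.34, SE 0.178, adjusted p = 0.00221). The count was 6 without either 3 h library and 7 without the 1 h library numbered 2. Of 15 posterior Hox genes, 8 fell with a median of -1.27.

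Posterior and anterior Hox genes differed in part in where the untreated libraries stood. Hoxb9 was at 10.6 and 12.3 TPM untreated, 45.4 and 58.2 TPM at 1 h and 9.64 and 12.7 TPM at 3 h (log2 fold change -2.12, SE 0.21, adjusted p = 0.000555). Hoxa9 was at 0.03 and 1.04 TPM untreated, 8.91 and 8.16 TPM at 1 h and 0.94 and 1.28 TPM at 3 h (log2 fold change -2.18, SE 0.337, adjusted p = 0.00448), and Hoxb8 at 10.1 and 12.9 TPM untreated, 28.1 and 28.1 TPM at 1 h and 6.01 and 5.59 TPM at 3 h (log2 fold change -2.10, SE 0.163, adjusted p = 0.000146). Within this label the 1 h libraries were thus the high ones. For 6 of the 8 called posterior genes both untreated libraries lay below the means of both irradiated groups. Of the 11 called anterior genes, both untreated libraries lay between the means for 6 and above both for 3, and they were split for 2. Hoxb6 of the anterior list, at 4.41 and 6.77 TPM untreated, lay between the means, as Hoxb8 did. Under the wild type label Hoxb9 was at 53.2 and 41.7 TPM untreated, 54.25 and 58.6 TPM at 1 h and 34.9 and 42.8 TPM at 3 h. The summed TPM of the posterior list was 30.4 and 39.7 untreated and 164 and 201 at 1 h under the knockout label. Under the wild type label it was 143.5 and 112.5 untreated and 183.6 and 203.5 at 1 h. The labels were thus alike at 1 h and apart in the untreated libraries. In the libraries labelled wild type the posterior list also had a negative median between 3 h and 1 h (-0.63), against -0.07 for the anterior list. Posterior Hox levels depend on the stage of an embryo, and the stage of each sample within the day was not tested. The posterior count was 4 without the 1 h library numbered 2 and without either 3 h library.

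**Figure D3:**
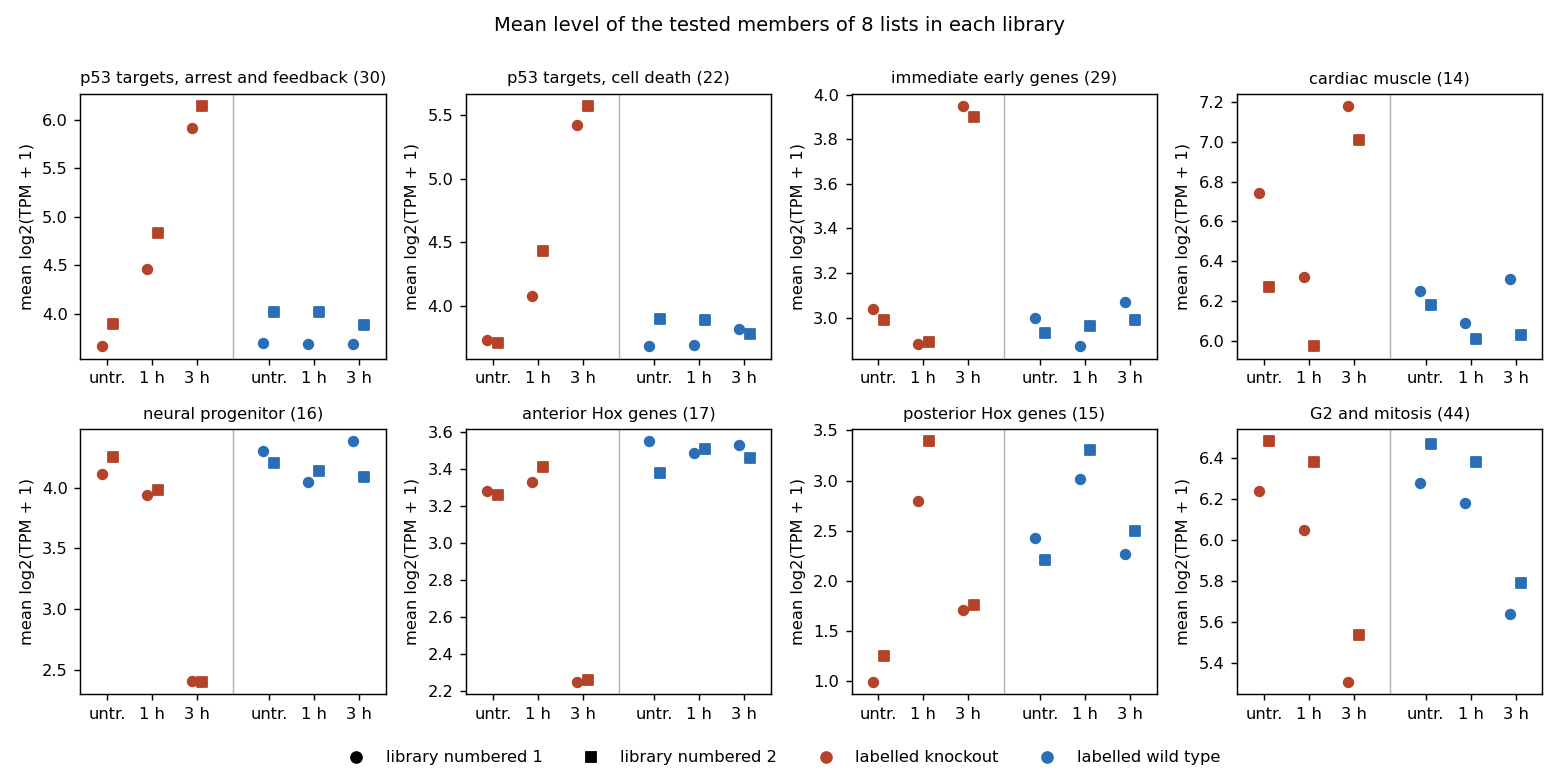
Mean log2(TPM + 1) over the tested members of 8 lists in each library, by time and label, with circles for libraries numbered 1 and squares for those numbered 2. At 3 h the libraries labelled knockout lie above all others in the lists of the upper row, below all others in the neural progenitor, anterior Hox and mitosis lists, and between the untreated and 1 h libraries of their label in the posterior Hox list.

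Genes of G2 and mitosis fell late. Of 44 tested, 16 fell, 0 rose, and the median was -0.76. With the block 37 fell and 1 rose, and 8 fell without the 3 h library numbered 1. Plk1, polo-like kinase 1, was at 171 and 190.0 TPM untreated, 124 and 113 TPM at 1 h and 36.2 and 40.8 TPM at 3 h (log2 fold change -1.60, SE 0.147, adjusted p = 0.00038). Prc1, a microtubule bundler of the midzone, was at 25.6 and 30.3 TPM at 3 h and 78.7 and 92.0 TPM at 1 h (log2 fold change -1.58, SE 0.162, adjusted p = 0.000615). Aurka, the mitotic kinase Aurora A, was at 33.1 and 35.0 TPM at 3 h and 73.4 and 92.6 TPM at 1 h (log2 fold change -1.25, SE 0.153, adjusted p = 0.00146), and Kif2c, a kinesin that depolymerises microtubules, at 25.98 and 24.4 TPM at 3 h and 59.1 and 60.1 TPM at 1 h (log2 fold change -1.21, SE 0.141, adjusted p = 0.00118). The groups did not overlap in these 4 genes, which held for 47.2% of all genes tested.

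The promoters of Plk1, Prc1, Aurka and Kif2c are shown because mitotic genes that fall together are known to share short elements near the start. Capitals mark TTTGAA or TTTAAA, the letters of the cell cycle genes homology region, and CCAAT, each on either strand, in windows built as above at chr7:122159185-122159484, plus strand (Plk1), chr7:80294201-80294500, plus strand (Prc1), chr2:172370521-172370820, minus strand (Aurka) and chr4:117178723-117179022, minus strand (Kif2c).
Plk1: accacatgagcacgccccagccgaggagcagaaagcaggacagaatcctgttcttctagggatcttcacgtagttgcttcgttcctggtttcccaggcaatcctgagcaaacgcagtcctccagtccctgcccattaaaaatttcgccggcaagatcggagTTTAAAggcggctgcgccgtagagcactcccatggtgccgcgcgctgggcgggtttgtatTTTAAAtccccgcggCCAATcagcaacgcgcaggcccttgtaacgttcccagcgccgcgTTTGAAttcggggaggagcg
Prc1: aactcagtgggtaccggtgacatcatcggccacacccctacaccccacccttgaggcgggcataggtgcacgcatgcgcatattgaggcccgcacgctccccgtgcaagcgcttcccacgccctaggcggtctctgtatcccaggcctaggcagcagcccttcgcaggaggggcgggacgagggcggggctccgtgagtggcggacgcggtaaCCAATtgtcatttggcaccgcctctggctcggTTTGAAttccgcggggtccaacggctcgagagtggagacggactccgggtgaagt
Aurka: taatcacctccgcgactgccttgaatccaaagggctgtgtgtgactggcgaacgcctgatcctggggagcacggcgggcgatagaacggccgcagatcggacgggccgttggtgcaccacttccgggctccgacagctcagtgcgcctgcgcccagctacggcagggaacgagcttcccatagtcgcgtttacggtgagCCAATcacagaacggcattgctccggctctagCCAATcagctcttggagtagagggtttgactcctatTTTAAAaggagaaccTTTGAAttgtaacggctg
Kif2c: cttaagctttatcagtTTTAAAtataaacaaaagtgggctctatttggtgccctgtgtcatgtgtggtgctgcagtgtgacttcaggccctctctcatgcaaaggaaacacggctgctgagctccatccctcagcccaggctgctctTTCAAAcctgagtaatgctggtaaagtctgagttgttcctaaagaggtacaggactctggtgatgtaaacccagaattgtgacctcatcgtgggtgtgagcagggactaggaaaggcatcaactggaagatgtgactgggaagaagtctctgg
The Kif2c window held TTTAAA, and TTTGAA on the other strand, where it reads TTCAAA in the line shown, but no CCAAT. Of the 44 genes, 36 (81.8%) had a window in the RefSeq table. TTTGAA or TTTAAA stood in 28 of these 36 (77.8%), against 27.8% of all 27025 windows, and CCAAT in 29 (80.6%) against 37.9%. In the G1/S and DNA replication list the shares were 33.3% and 63.3% of 30 windows. TTTAAA reads the same on both strands, and the motifs do not overlap in letters. The p53 decamer stood in 8 of 26 windows (30.8%) of the arrest and feedback list and in 2 of 30 (6.67%) of the repair and metabolism list. These shares describe letters, with no test, and say nothing about binding.

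Few genes of other cell cycle phases were called, where 6.89% of all genes tested rose and 4.31% fell. Of 36 genes of G1/S and DNA replication, Ccne1, cyclin E1, was the only one called lower (51.7 and 52.2 TPM at 3 h, 99.0 and 104 TPM at 1 h, log2 fold change -0.95, SE 0.168, adjusted p = 0.00832), and its call was lost without either 3 h library. The list's median was -0.29, and with the block 10 fell. In the list of D-type cyclins, kinase inhibitors and pocket proteins, Cdkn1b, the kinase inhibitor p27, was at 9.48 and 9.89 TPM at 3 h and 21.7 and 25.1 TPM at 1 h (log2 fold change -1.19, SE 0.147, adjusted p = 0.00158), while Rb1, the retinoblastoma gene, whose call was lost without the 1 h library numbered 1 and without the 3 h library numbered 2, was at 23.7 and 36.9 TPM at 3 h and 5.11 and 9.74 TPM at 1 h (log2 fold change 1.92, SE 0.379, adjusted p = 0.0141). With the block 3 members of this list rose and 3 fell. The inhibitors Cdkn1a and Cdkn2b were therefore up and Cdkn1b was down at the same time. H1f0, a linker histone, was at 69.3 and 63.9 TPM at 3 h and 194 and 214 TPM at 1 h (log2 fold change -1.60, SE 0.148, adjusted p = 0.000393). It was the only 1 of 12 listed histones that was tested.

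Other signalling and metabolic lists gave few calls, and some shares were near those of all genes tested (6.89% higher and 4.31% lower). Of 10 FGF genes 3 fell: Fgf17 (-1.42), Fgf15 (-1.62) and the receptor Fgfr3 (-1.46). The calls of Fgf15 and Fgfr3 were lost without the 1 h library numbered 2 and without the 3 h library numbered 1, and with the block 5 fell. Of 20 Wnt genes, the target Sp5 rose (12.8 and 9.24 TPM untreated, 2.89 and 2.89 TPM at 1 h, 11.7 and 11.6 TPM at 3 h) and the receptor Fzd2 (-1.51) and the inhibitor Nkd2 (-0.78) fell. Of these falls 0 held without the 1 h library numbered 2 or the 3 h library numbered 1 and 1 without either of the others, and with the block 4 fell. In the BMP and TGF-beta list 2 of 15 fell (Grem1, a BMP antagonist, -1.09, and Id4, -0.87). That count was 0 without the 1 h library numbered 2 or the 3 h library numbered 1 and 1 without either of the others, and 6 fell and 1 rose with the block. Cholesterol synthesis had 3 of 15 lower (Hmgcs1 -0.90, Mvd -1.04, Cyp51 -0.61) and hypoxia and glycolysis 1 of 19, the hexokinase Hk2, at 70.6 and 51.7 TPM untreated, 36.6 and 27.3 TPM at 1 h and 9.61 and 12.3 TPM at 3 h. The 3 cholesterol calls were lost without either 3 h library and without the 1 h library numbered 1, 1 held without that numbered 2, and with the block 7 fell. In the hypoxia list 2 fell without the 1 h library numbered 1, and with the block 2 fell and 1 rose. Of 13 mitochondrial transcripts 0 were called (5 rose with the block), with mt-Co1 at 10418 and 11057 TPM at 3 h and 7586 and 6863 TPM at 1 h.

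**Figure D4:**
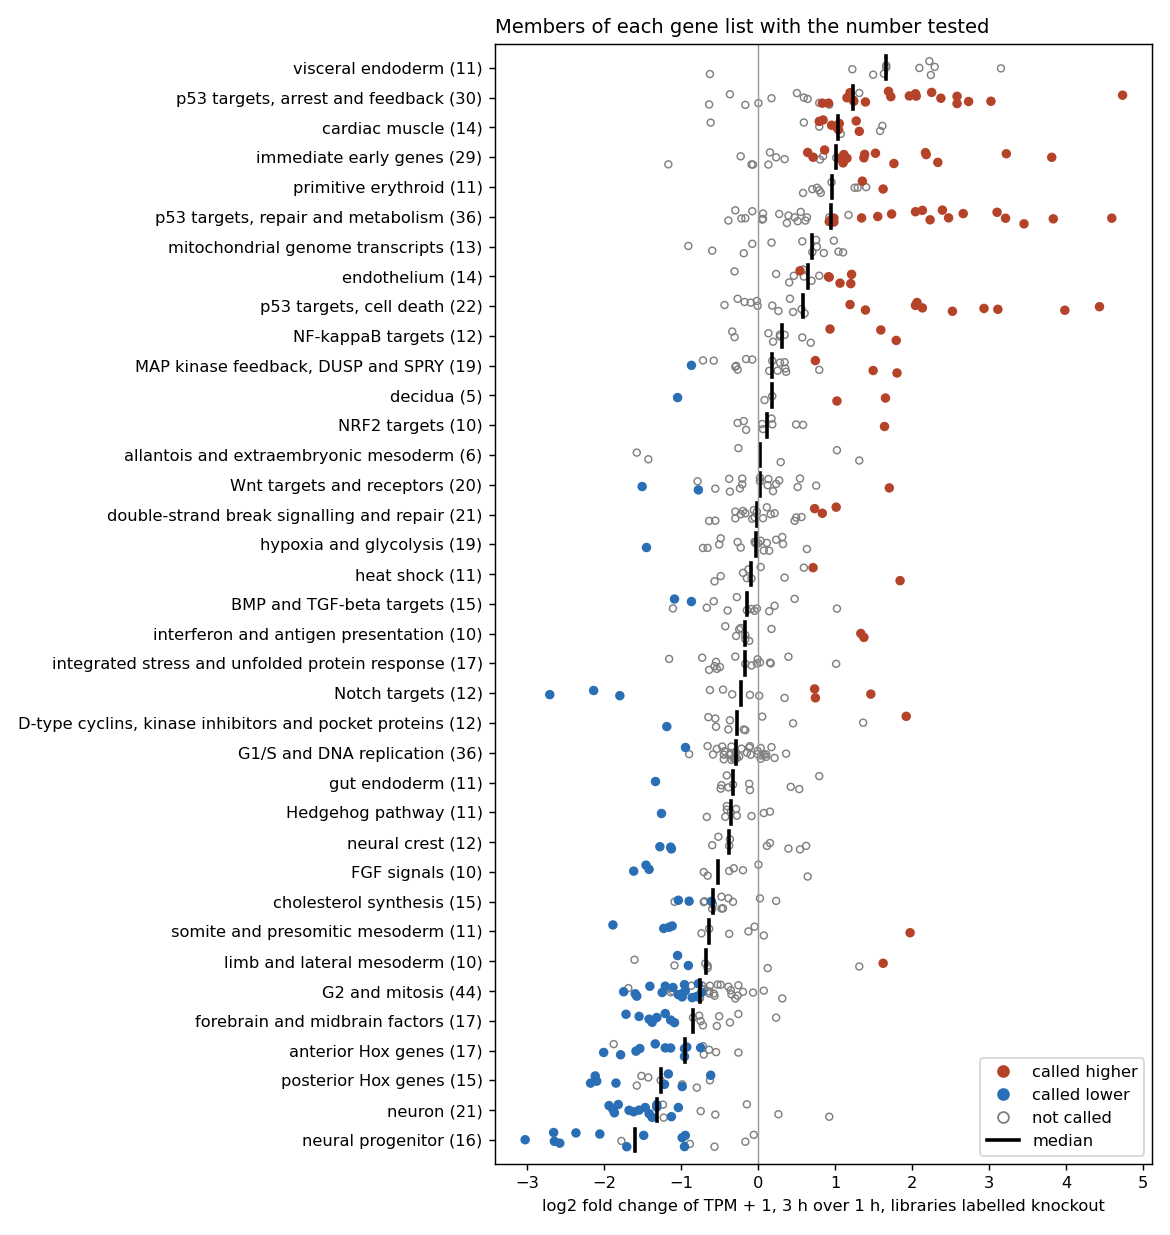
log2 fold change (3 h over 1 h, libraries labelled knockout) of each tested member of the gene lists with at least 5 tested members, 1 point per gene, filled where called, with the median of the list as a bar. Called rises number 19, 10 and 18 in the 3 p53 target lists, 17 in the immediate early genes, 8 in cardiac muscle and 6 in endothelium, and called falls 11 and 14 in the neural progenitor and neuron lists, 11 and 8 in the Hox lists and 16 in the mitosis list.

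Of 14 cardiac muscle markers 8 rose, 0 fell, and the median was 1.03. Myl4, an atrial myosin light chain, was at 388 and 380.4 TPM at 3 h and 194 and 180.3 TPM at 1 h (log2 fold change 1.04, SE 0.151, adjusted p = 0.00339), and Ttn, titin, at 2.77 and 3.73 TPM at 3 h and 0.76 and 0.73 TPM at 1 h (log2 fold change 1.27, SE 0.196, adjusted p = 0.00438). The summed TPM of the list was 2831 and 2150.0 untreated, 2042 and 1638 at 1 h and 4099 and 3696 at 3 h, so within this label the 1 h libraries were the low ones. Under the wild type label the sums were 1908 and 1971 untreated, 1742 and 1604 at 1 h and 1951 and 1699 at 3 h. The 3 h libraries labelled knockout thus stood above all others. The count of called cardiac markers was 3 to 5 without any 1 of the 4 libraries. Of 14 endothelial markers 6 rose with a median of 0.64. Flt1, a VEGF receptor, was at 12.2 and 11.1 TPM untreated, 6.26 and 6.86 TPM at 1 h and 15.6 and 17.1 TPM at 3 h (log2 fold change 1.20, SE 0.173, adjusted p = 0.00325), and Sox7, Pecam1 and Sox18 had log2 fold changes of 1.06, 0.91 and 1.21. Without 1 library the endothelial count was 2 to 4.

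Of 11 primitive erythroid markers all had positive log2 fold changes, and 2 were called, among them Slc4a1 (1.35), the anion exchanger of red cells. The summed TPM of the list was 2333 and 6655 untreated, 5840.0 and 10460.0 at 1 h and 16170.0 and 14970.0 at 3 h, and both calls were lost whichever of the 4 libraries was left out. With the block 6 rose. Visceral endoderm markers had the highest median of any list (1.66), and 0 of 11 were called (1 without the 1 h library numbered 2, 2 with the block). Their sum was 199 and 507 TPM at 3 h and 28.6 and 255 TPM at 1 h, with overlap between the groups. Of 4 leukocyte markers 0 were called, and the sum of the list was 7.34 and 6.41 TPM at 3 h and 11.5 and 8.12 TPM at 1 h. Of 3 trophoblast markers Ascl2 (1.48) rose, a call lost without either library numbered 1, with a sum of 9.45 and 10.8 TPM at 3 h and 4.04 and 6.11 TPM at 1 h. Of 5 decidua markers Cryab (73.1 and 82.2 TPM at 3 h, 25.6 and 22.5 TPM at 1 h) and Des (1.02) rose and Hand2 (-1.05) fell, and Cryab and Des are also made by heart and muscle of the embryo. The call of Hand2 was lost without the 1 h library numbered 1 and without the 3 h library numbered 2. None of 6 allantois markers was called, and 2 fell without the 1 h library numbered 1 and with the block. Over all genes tested 6.89% rose and 4.31% fell, which these small counts have to be read against. The part of tissue makeup in the results was not tested.

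Mesodermal lists were mixed, where 6.89% of all genes tested rose and 4.31% fell. Meox2 (log2 fold change -1.89, SE 0.203, adjusted p = 0.000822), Pax1 (-1.23) and Meox1 (-1.16), factors of the somite, fell, while Mesp2, a segmentation gene, was at 4.55 and 3.52 TPM at 3 h and 0.44 and 0.13 TPM at 1 h (log2 fold change 1.97, SE 0.257, adjusted p = 0.00202). In the somite list 1 of 11 rose and 4 fell, and 2 fell without the 1 h library numbered 2 or either 3 h library. The call of Meox1 was lost whichever of the 4 libraries was left out. In neural crest 3 of 12 fell: Tfap2b (4.81 and 4.20 TPM at 3 h and 10.7 and 11.3 TPM at 1 h, log2 fold change -1.13, SE 0.158, adjusted p = 0.00288), Alx1 (-1.28) and Twist1 (-1.14). That count was 1 without the 3 h library numbered 1, and with the block 4 fell and 2 rose. In limb and lateral mesoderm Tbx20, a cardiac T-box factor, rose (1.62) and 2 of 10 fell, Hand2 and Prrx1 (-0.91). The rise held only without the 1 h library numbered 2, among the 4 omissions, and 1, 1 and 0 falls remained without the 1 h library numbered 2, the 3 h library numbered 1 and the 3 h library numbered 2. With the block 6 fell and 1 rose. In gut endoderm 1 of 11 fell, Nkx2-1 (-1.34), a call lost whichever of the 4 libraries was left out, and with the block 3 fell and 1 rose. Barx1, a homeobox gene of the branchial arches and stomach mesenchyme, was among the largest falls at 2.82 and 3.57 TPM at 3 h and 22.6 and 25.8 TPM at 1 h (log2 fold change -2.59, SE 0.317, adjusted p = 0.00148).

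The untreated libraries of the same label place these changes, as a description without a test, since the contrasts share libraries. Of the 1071 genes that rose, both untreated libraries lay between the 1 h and 3 h means for 458 (42.8%), below both means for 314 (29.3%) and above both for 7, and the untreated libraries were split for 292. Of the 669 genes that fell, both untreated libraries lay between the means for 280 (41.9%), above both means for 198 (29.6%) and below both for 8. Cdkn1a, Ccng1, Mdm2, Pmaip1 and Tap1 were of the kind that was above the untreated level at 1 h and higher at 3 h. Among the called members, 13 of 19 in the arrest and feedback list, 7 of 10 in the cell death list and 5 of 17 immediate early genes had both untreated libraries below both means. On the falling side, 13 of 16 mitotic genes and 8 of 11 neural progenitor markers had both untreated libraries above both means. A distance of 2-fold or more in TPM + 1 at 1 h was met by few: 17 of the 1071 genes (1.59%) stood that far above the untreated mean at 1 h, against 1.17% of all genes tested. On this scale the 239 rising genes under 1 TPM in both 1 h libraries could not reach it.

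In the libraries labelled wild type the same interval gave 0 calls by limma, with 928 genes (5.97%) at an unadjusted p under 0.05, and 13 calls with the block, 2 higher (0.0129%) and 11 lower (0.0708%). The genes that rose in the libraries labelled knockout had a median log2 fold change of 0.13 there, and those that fell one of -0.18. The test of the difference between the labels called 380 genes (2.45%), 316 with the more positive change in the libraries labelled knockout (2.03%) and 64 with the more negative one (0.412%). With the block the difference passed for 793 genes (5.1%) on the positive and 594 (3.82%) on the negative side. Of the 380, 375 were also called in the libraries labelled knockout. The median of this difference over all genes was -0.11, and 0.00 with size factors.

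Tap1, Sec14l5, Zfp750, Mapkapk3, Ltb4r2 and Eva1c had the smallest p among the positive differences. Sec14l5, a lipid-binding protein of the SEC14 family, was at 12.96 and 14.1 TPM at 3 h and 0.14 and 0.12 TPM at 1 h under the knockout label, against 0.11 and 0.07 TPM at 3 h and 0.09 and 0.10 TPM at 1 h under the wild type label (adjusted p of the difference = 0.000659). Zfp750, a zinc finger factor of epidermal differentiation, was at 16.5 and 17.4 TPM at 3 h and 0.78 and 0.63 TPM at 1 h under the knockout label. Mapkapk3, a kinase downstream of p38, was at 49.9 and 51.6 TPM at 3 h and 3.01 and 3.16 TPM at 1 h, against 1.91 and 1.72 TPM at 3 h and 2.10 and 2.05 TPM at 1 h under the wild type label (adjusted p = 0.000659). Ltb4r2, a leukotriene B4 receptor, and Eva1c had differences of 3.43 and 3.52. All 6 were at or under 3.16 TPM in every library but those at 3 h under the knockout label.

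Dbx1, Olig2, Hoxa2, Six3, Neurog2 and Rcor2 had the smallest p among the negative differences. Dbx1 was at 16.8 and 13.3 TPM at 3 h and 9.35 and 12.8 TPM at 1 h under the wild type label, and Olig2 at 11.0 and 8.68 TPM at 3 h and 6.98 and 8.48 TPM at 1 h, while both were under 1 TPM at 3 h under the knockout label. The difference passed for 9 of 16 neural progenitor markers, 6 of 17 forebrain and midbrain factors, 5 of 17 anterior Hox genes and 2 of 15 posterior Hox genes, Hoxb8 and Hoxb9. All of these were more negative under the knockout label, a side on which 0.412% of all genes tested passed. The difference passed for 13 of 30, 7 of 22 and 10 of 36 members of the arrest, death and repair lists of p53 targets. All of these were more positive, a side on which 2.03% of all genes tested passed. With the block it passed for 10 neural progenitor, 10 forebrain and midbrain, 8 anterior Hox and 2 posterior Hox genes, and for 20, 9 and 17 members of the 3 lists of p53 targets. The shares of all genes tested were then 3.82% on the negative and 5.1% on the positive side.

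For mitosis genes the difference passed for 0 of 44 (limma), and with the block for 9, of which 6 were more negative and 3 more positive under the knockout label. With the block 3.82% of all genes tested passed as more negative and 5.1% as more positive. The median of the mitosis genes in the libraries labelled wild type was -0.51. Plk1 was at 56.7 and 62.3 TPM at 3 h and 119 and 115 TPM at 1 h there, and Aurka at 42.4 and 46.1 TPM at 3 h and 84.2 and 91.1 TPM at 1 h. Neither change passed the test under that label without the block (adjusted p = 0.503 for both), and both passed with it (0.0396 for Plk1 and 0.0238 for Aurka), where 8 of the 44 genes fell. For Plk1 the log2 fold change was -1.60 under the knockout label and -0.96 under the wild type label (adjusted p of the difference = 0.208, and 0.0396 with the block). Cardiac, endothelial and erythroid markers had 0 called differences (limma), and with the block 6, 2 and 0, all more positive under the knockout label, with medians under the wild type label of 0.07, 0.03 and -0.22. The part that progress through the cell cycle or embryo size has in these values was not tested.

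**Figure D5:**
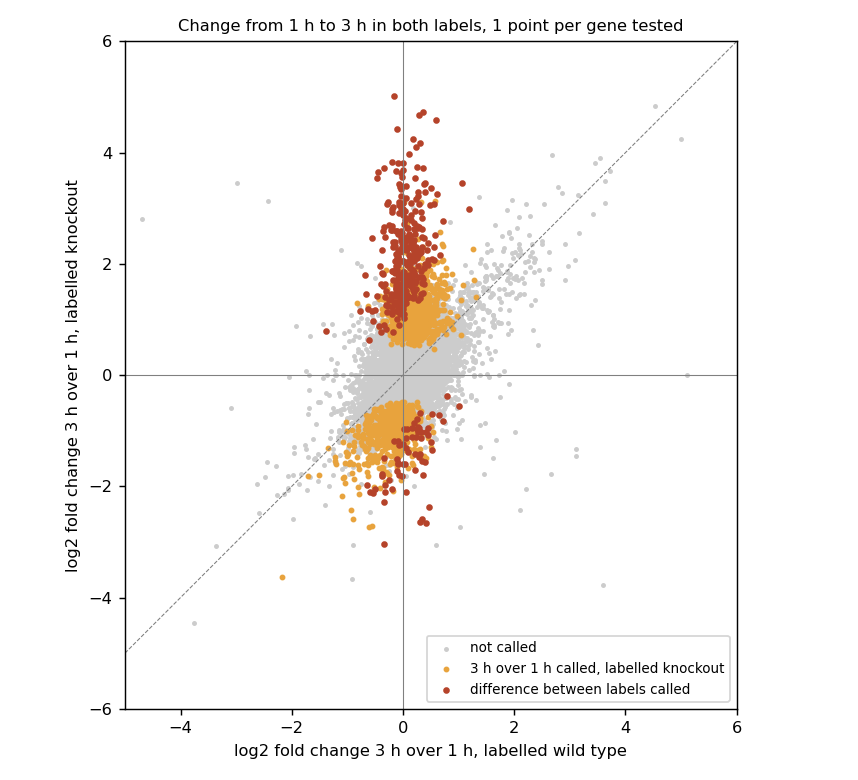
log2 fold change between 3 h and 1 h under the knockout label (vertical) against that under the wild type label (horizontal), 1 point for each of the 15535 genes tested, coloured by call. The 380 genes with a called difference spread along the vertical axis near 0 on the horizontal one, 316 of them with the more positive and 64 with the more negative change under the knockout label.

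The called genes differed in structure, read from the GENCODE M21 annotation as a description. Genes that rose had a median span of 27.5 kb with 9 exons, and genes that fell one of 14.0 kb with 6 exons, against 19.8 kb and 7 exons over all genes tested. The share with a single exon was 3.74% among rising, 7.47% among falling and 11.2% among all tested genes. Protein-coding genes made up 94.4% and 94.8% of the called genes and 86.6% of all. The annotation is on GRCm38, whereas the submitters name GRCm39, and it was used for these properties and for names, not for positions. The promoters of the genes called over the whole table are not compared, since only 75.3% of the rising and 75.2% of the falling genes had a window.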

How the data were processed

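Transcript abundance was measured by paired-end RNA-seq of polyadenylated RNA in 12 libraries of mouse embryos. The authors deposited TPM (abundance per length, relative to the library's total) for 53647 genes, scaled so that each library sums to between 999999.1 and 1000000.8. The submitters' processing notes name R 4.3.3, RSEM 1.3.3, STAR 2.7.3a, DESeq2 1.42.1 and HTSeq 0.12.3, with no role given, and the build GRCm39. Annotation, strand setting and filters are not stated, so values of close paralogs and overlapping genes are uncertain. Between 13724 and 14357 genes reached 1 TPM in a library.

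Gene symbols were taken by ID (97.1% matched; 42 tested genes have none). limma 3.58.1 was fitted to log2(TPM + 1) with 1 mean for each of the 6 groups, moderated with a trend and 6 residual degrees of freedom (5 with the block). Contrasts were two-sided and Benjamini-Hochberg adjusted over 15535 genes, with 0.05 as the limit for a call. The log2(TPM + 1) scale understates changes of low genes. The fit was run on simulated data with independent noise and with changes only in genes of higher level. Such data lack the shared deviations of same-numbered libraries given below, so they do not test the calls made here. An exact permutation test of 2 against 2 libraries cannot give a p under 0.333, so none was used.

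The members and gene lists were chosen with earlier results of these data known, and the lists are described by counts and medians. Genes named are Trp53 and the 4 title genes, the called rises and falls of largest size without overlap (up to 12 each, clone-like names left out), the called members of each list ranked by p (up to 4, or 2 of a list with no call), and up to 6 genes on each side of the difference between labels. Other members are named to complete a count or range, or were picked after their values were seen (among them Btg2, Sesn1, Bbc3, Bax, Ddb2, Xpc, Polh and Nes).

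Same-numbered libraries deviated together from their group means (correlations across genes 0.327 to 0.796 in all 15 pairs of groups), so the numbers, which come from the labels, pair the libraries, and block values are given where they move a count of called members by over 1.5 times, and for the differences between labels by list. Replicates correlated at 0.935 to 0.974 and none was a copy. Alternatives were another pseudocount (0.1), other filters, size factors, quantile normalization, fewer groups in the fit, no trend, library weights, the block, a fold change of at least 2, and omission of libraries. Promoter windows and gene starts are RefSeq, GRCm38.p6, the first listed for each symbol. Results for 4 genes of the lists are not reported here. Figures were drawn with matplotlib.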

Additional observations from a re-analysis of the deposited data

Results flagged for a closer look

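The change between 1 h and 3 h differed between the libraries labelled knockout and those labelled wild type for 380 genes, by the limma test of the difference itself with Benjamini-Hochberg adjustment. All values here are knockout label minus wild type label, in log2 units. Among the title genes the difference was 2.68 for Cdkn1a, 1.92 for Foxo3 and 1.37 for Fbxw7. Among the largest rises it was 4.38 for Ptprv, 4.38 for Prrg4, 4.0 for Tap1, 4.53 for Fas, 4.06 for Fam196a, 3.88 for Zfp365, 3.87 for Shisal2b, 3.87 for Pmaip1, 4.03 for Dcxr, 3.9 for Def6, 3.8 for Egr1 and 3.49 for Mab21l3. It was 3.69 for Sec14l5, 3.35 for Zfp750, 3.79 for Mapkapk3, 3.43 for Ltb4r2 and 3.52 for Eva1c.

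Among genes with the more negative change under the knockout label, the difference was -2.69 for Sox3, -3.07 for Dbx1, -2.96 for Olig2, -2.93 for Pax6, -2.84 for Pou3f2 and -1.95 for Lrrn1. Hox and other factors followed with -1.58 for Hoxb9, -1.86 for Hoxa2, -1.89 for Six3, -1.79 for Neurog2 and -1.67 for Rcor2. Each of these rests on 8 libraries, and leaving out 1 of the 12 libraries gave between 143 and 285 calls. Groups of 2 libraries allow no outlier test within a group.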

How the results depend on the processing

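In the libraries labelled knockout, 1740 genes were called between 3 h and 1 h. The count was 143 in a fit of the groups compared, 592 in a fit of the 3 groups of the label, 1057 without both 1 h libraries numbered 2, 1087 with a fold change of at least 2 besides, and 723 to 1731 without a single library. With the replicate block, which rests on a pairing of the numbers read from these same data, it was 4525, and 4495 with size factors besides. In the libraries labelled wild type, 0 genes were called, 4 without a filter on low values, 13 with the replicate block, 26 with the block and size factors, 3 without both 1 h libraries numbered 2, and 0 to 1 without a single library. The difference between the labels was called for 380 genes, and for 231 with a pseudocount of 0.1, 571 with size factors, 169 in a fit of the groups compared, 1387 with the replicate block, 1420 with the block and size factors, 116 without both 1 h libraries numbered 2, and 143 to 285 without a single library. The causes of these shifts were not tested, beyond the smaller number of libraries in the fits that omit some. No named gene called in the libraries labelled knockout changed sign under any alternative run. Of the 121 named genes called, 87 lost the call in the fit of the 4 libraries, 43 in the fit of the label, 33 without the 3 h library numbered 2, 32 without the other 3 h library, 27 without the 1 h library numbered 1 and 19 without that numbered 2. TPM keep no depth, so noise of low genes cannot be separated from sampling, and 2 libraries a group, with separate embryos not recorded, limit every p.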
